A study of Drosophila melanogaster with 3 samples.

Results

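The genes described here encode the proteins of the mitochondrial ribosome of Drosophila melanogaster. They were taken as every protein-coding gene on the main chromosome arms whose symbol starts with mRpL or mRpS followed by a number. This gave 73 of 13945 protein-coding genes. By symbol alone, 47 were assigned to the large subunit (mRpL) and 26 to the small subunit (mRpS). The measurement was ChIP-seq (sequencing of immunoprecipitated chromatin) in a transgenic line that carries acj6 with GFP fused to its C-terminus. The factor acj6 belongs to the POU-homeodomain family, in its class IV. An antibody against GFP was used on whole animals of both sexes, collected as white prepupae, the moment at which the puparium forms. There was 1 group of 3 biological replicates, all of the same transgenic line, with no second genotype, stage or treatment. Each replicate was a pool of whole animals, so the lists do not show in which cells a region was occupied, and no label states that they were raised in separate cultures.

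The mitochondrial ribosome translates the few messenger RNAs of the mitochondrial genome, most of which encode membrane subunits of the respiratory chain. Its proteins are encoded in the nucleus, made in the cytosol and imported. The small subunit reads the messenger RNA and the large subunit forms the peptide bond. Some of its proteins have counterparts of the same number in bacterial ribosomes. Many of those with higher numbers are additions found in mitochondria.

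The deposited data were lists of regions with a summit, the position of the strongest enrichment, and a signal value given by the authors' peak caller. The IDR list held 8248 peaks that passed the irreproducible discovery rate procedure, which is based on how well replicates repeat. Its signals were those of the 8248 strongest regions of the pooled list, so the IDR list and the pooled list are not separate evidence. The list of each replicate and that of the pooled replicates held 30000 regions each, weak background regions included, so replicates were compared over their 8248 strongest peaks. Signal is not scaled between lists and is therefore given as a rank within a list, where rank 1 is the strongest. No read counts were given, so the depth of the replicates is unknown. A gene is called bound when an IDR summit lay within 1 kb of one of its transcription start sites (TSSs). With 1 group there was no test between conditions, and shares are set beside the same share over all protein-coding genes.

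Of the 73 mitochondrial ribosomal protein genes, 30 were bound (41.1%, exact binomial 95% interval 29.7 to 53.2%, which covers counting error only), beside 24.4% of all protein-coding genes. Among the strongest peaks of each replicate, a summit lay near 35 members in replicate 1, 32 in replicate 2 and 33 in replicate 3. These are 47.9%, 43.8% and 45.2% of the members, beside 26.5%, 24.4% and 26.0% of all genes. The mean over replicates was 45.7% ± 2.09 (SD, n = 3) for the members and 25.6% ± 1.10 (SD, n = 3) for all genes, and the replicate values of members and of all genes did not overlap. With every region of the full lists counted, 47, 38 and 40 members had a summit in replicates 1, 2 and 3 (64.4%, 52.1% and 54.8%), beside 49.0%, 44.9% and 49.1% of all genes. The pooled list of 30000 regions gave 38 members (52.1%), beside 43.8% of all genes.

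The excess over all genes was seen with summits that may be shared between neighbours and not when each was given to 1 gene. When a summit was counted only for the protein-coding gene with the closest TSS, 13 members were bound (17.8%), beside 18.5% of all genes. Each of the 30 bound members had its own peak, and every one had another protein-coding TSS within 1 kb of its summit, beside 55.7% of all bound genes. At 18 of the 30 the other gene was closer to the strongest summit and lay on the opposite strand, so that the lists alone do not assign those summits to the ribosomal gene. mRpS26 is among both these 18 and the 13, through a weaker summit close to its own TSS.

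**Figure D1:**
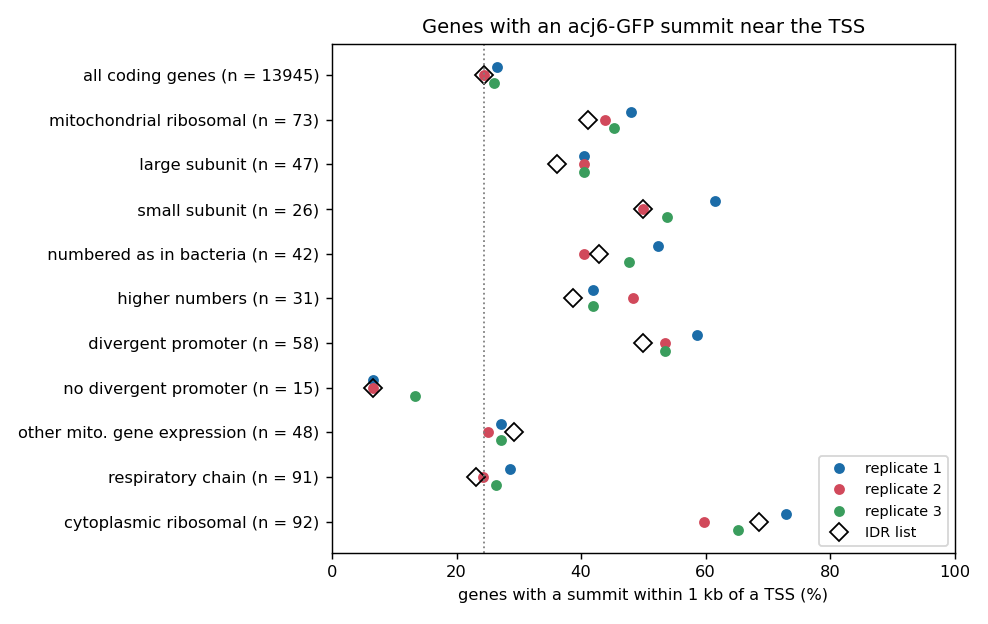
Share of genes with a summit within 1 kb of a TSS, in percent, for the IDR list (open diamonds) and the 8248 strongest peaks of each replicate (coloured points), with the IDR share of all genes as a dotted line. The members lie between 41.1% and 47.9%, all to the right of all coding genes, while the 15 members without a divergent promoter lie to the left in every list.

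Most members had a divergent promoter. This is taken here as one with the TSS of another protein-coding gene, on the opposite strand, at most 1 kb upstream. Of the 73 members, 58 had one (79.5%), beside 35.2% of all protein-coding genes. Of these 58, 29 were bound (50%), beside 37.3% of all genes with a divergent promoter. Among bound genes, 29 of the 30 members had a divergent promoter, beside 1835 of all 3399. Counted for the closest TSS only, 13 of the 58 were bound (22.4%), beside 22.2% of all genes with a divergent promoter. Of the 15 members without a divergent promoter 1 was bound (6.67%), beside 17.3% of all such genes.

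The 1 bound member without a divergent partner was mRpL49, whose summit lay 877 bp upstream and 210 bp from the TSS of CG4404. Its ranks were 6079, 8006 and 7549 in replicates 1, 2 and 3 and 7076 in the IDR list, so the peak was weak in all of them. The others of this class, which were not bound, were mRpL9, mRpL10, mRpL12, mRpL13, mRpL14, mRpL19, mRpL36, mRpL40, mRpL45, mRpS5, mRpS9, mRpS33, mRpS34 and mRpS35. In the replicates, 1, 1 and 2 of these 15 genes had a summit of the strongest peaks within 1 kb.

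Among divergent members the bound genes lay mostly at the wider distances between the facing TSSs. With a distance of 0 to 99 bp, 4 of 18 members were bound (22.2%), beside 27.9% of all genes with this spacing. With 100 to 249 bp, 5 of 7 were bound (71.4%), beside 33.7% of all such genes. With 250 to 1000 bp, 20 of 33 were bound (60.6%), beside 41.1% of all such genes. The median distance between the facing TSSs was 384 bp at the 29 bound divergent members (range 20 to 793 bp) and 136 bp at the 29 unbound ones (21 to 637 bp). Over all divergent genes these medians were closer, 318 bp for bound and 286 bp for unbound genes. The small numbers leave wide intervals. Those of the members and of all genes overlap in all 3 distance classes (42.1 to 77.1% and 39.3 to 42.9% at 250 to 1000 bp), over all divergent promoters (36.6 to 63.4% for the members) and without a divergent promoter (0.169 to 31.9% and 16.5 to 18.1%).

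**Figure D2:**
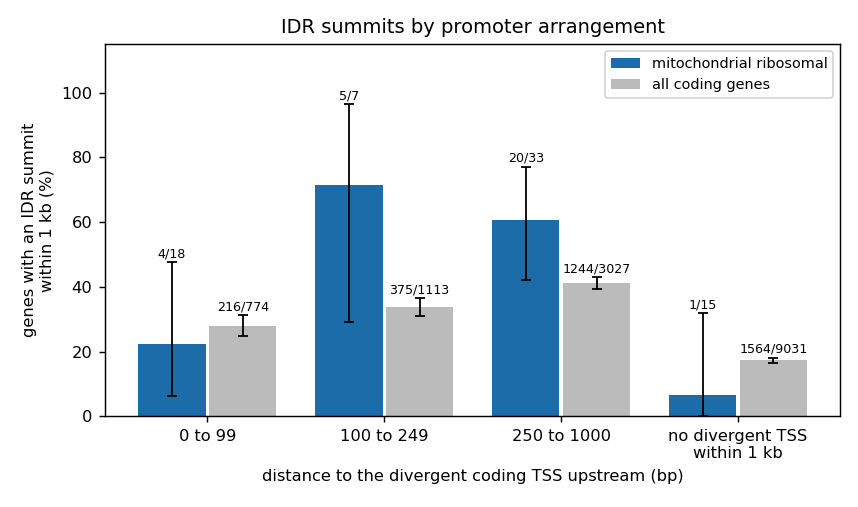
Share of genes with an IDR summit within 1 kb, in percent, for the mitochondrial ribosomal protein genes (blue) and all protein-coding genes (grey) by the distance to the facing TSS in bp, with counts above the bars and exact binomial 95% intervals as error bars. The share of members was 22.2% at 0 to 99 bp, 60.6% at 250 to 1000 bp and 6.67% without a facing TSS.

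Summits lay upstream of the members and mostly between the facing TSSs. The median position of the strongest IDR summit was -155.5 bp (quartiles -217 and -109 bp), where a negative position is upstream of the TSS, and the range was -877 to 63 bp. It was upstream at 29 of 30 bound members (96.7%), beside 82.2% of all bound genes and 85.7% of all bound divergent genes. The replicates gave medians of -176, -153 and -141 bp. Over all bound genes the median was -161 bp, with quartiles of -307 and -69 bp, so the members differed from them more in the narrow spread than in the centre. The summit lay between the facing TSSs at 24 of the 29 bound divergent members (82.8%), beside 69.8% of all bound divergent genes. It lay in no protein-coding gene at 25 of the 30 and in a 5′ untranslated region at the other 5, that of the member itself at mRpL23 and those of the partners Taz, Uba4, HtrA2 and norpA at mRpL18, mRpL51, mRpL11 and mRpL33.

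**Figure D3:**
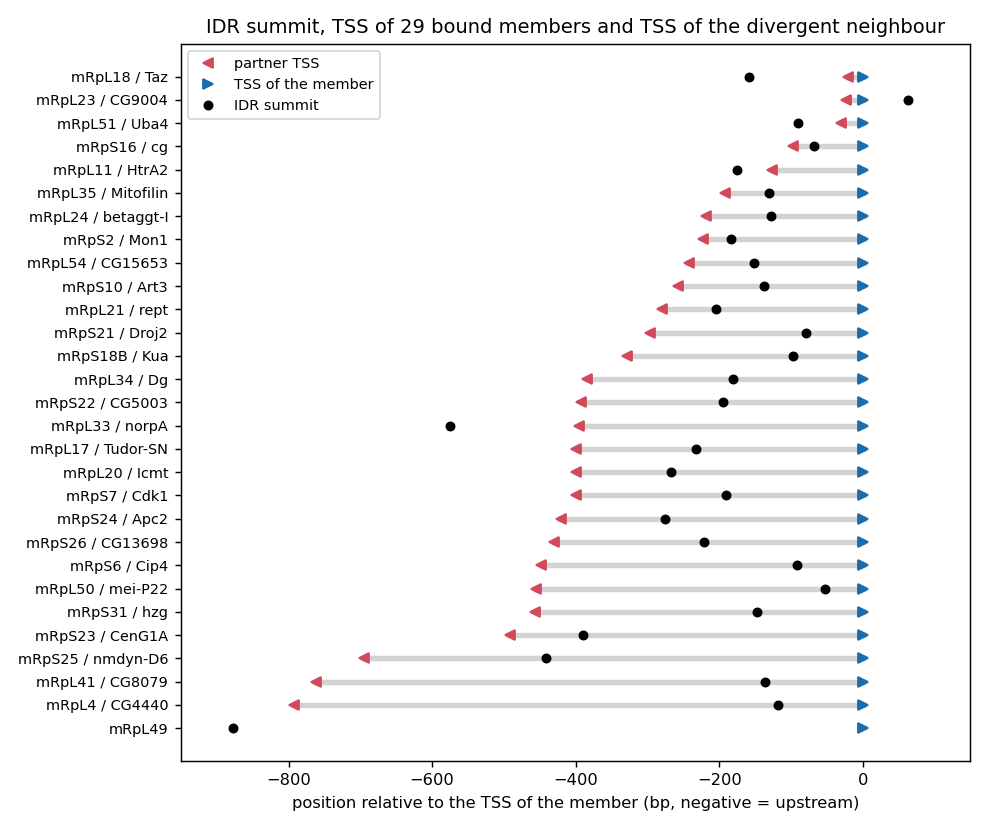
Position in bp of the strongest IDR summit (black), of the TSS of 29 of the 30 bound members (blue, at 0; mRpL37 is not drawn) and of the facing TSS of its divergent partner (red), ordered by the distance between the TSSs. At 23 of them the summit lies on the grey line between the TSSs, and at mRpL23 alone it lies downstream of the member's TSS. At mRpL23 the summit is placed from the closest TSS and the partner from the 5′ end of the gene.

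The strongest peaks at the members were among the strongest of the whole list. mRpS23 (FBgn0260407), a small subunit protein with no bacterial counterpart, had rank 12 in the IDR list and ranks 12, 15 and 7 in replicates 1, 2 and 3. Its IDR signal was 2624 and the summit lay 390 bp upstream, in the 492 bp that separate it from CenG1A, a GTPase-activating protein for Arf, whose TSS was closer. mRpL41 (FBgn0034001), a large subunit protein found in mitochondria, had rank 13 in the IDR list, ranks 15, 6 and 15 in the replicates and a signal of 2559. Its summit lay 136 bp upstream, and the facing TSS of CG8079 was 762 bp away, so that mRpL41 was the closest gene.

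mRpS10 (FBgn0038307), the counterpart of the bacterial small subunit protein of that number, had rank 14 in the IDR list, ranks 16, 14 and 13 in the replicates and a signal of 2440. Its summit lay 138 bp upstream, near the middle of the 257 bp to Art3, an arginine methyltransferase, whose TSS was closer at 119 bp. mRpL23 (FBgn0035335), the counterpart of a protein at the exit tunnel of the bacterial ribosome, had rank 38 in the IDR list, ranks 40, 41 and 36 in the replicates and a signal of 1804. The summit lay 63 bp downstream of the closest of its 3 TSSs. The TSS of CG9004 was 24 bp upstream of the 5′ end of mRpL23 and 113 bp from the summit. In dm6 the 4 summits are at base 13835462 of arm 2L, 15217753 of 2R, 15229527 of 3R and 2373615 of 3L. These 4 genes ranked among the first 41 peaks of all 3 replicates, and the best rank of any other member in any replicate was 207.

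mRpL24, the counterpart of a bacterial large subunit protein that binds ribosomal RNA, came next, with rank 220 in the IDR list, ranks 207, 217 and 227 in the replicates and a signal of 955. Its summit lay 128 bp upstream, in the 218 bp to betaggt-I, a subunit of a protein prenyltransferase, whose TSS was closer at 90 bp. mRpL20 had rank 475 in the IDR list and ranks 560, 488 and 435 in the replicates, with a signal of 693. Its summit lay 267 bp upstream, towards Icmt, which methylates prenylated proteins and whose TSS was closer at 132 bp. Ranks of mRpL24 and mRpL20 varied little between replicates.

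mRpS2 had rank 563 in the IDR list and ranks 468, 543 and 677 in the replicates, with a signal of 645 and a summit 183 bp upstream. It faces Mon1, part of an activator of Rab7, at 222 bp. mRpS6 had rank 1034 in the IDR list and ranks 1055, 876 and 1149 in the replicates, with a signal of 475 and a summit 91 bp upstream, and its partner Cip4, an F-BAR protein of the actin cytoskeleton, lies 448 bp away. Both are counterparts of bacterial small subunit proteins, and mRpS6 was the closest gene to its summit while Mon1 was closer than mRpS2.

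The next 4 members were weaker. mRpL34, opposite Dg (dystroglycan) at 384 bp, had a signal of 333, rank 1813 in the IDR list, ranks 2593, 1477 and 1955 in the replicates and a summit 181 bp upstream. mRpS26, opposite CG13698 at 430 bp, had a signal of 297, rank 2165, ranks 2555, 2204 and 2083 in the replicates and a strongest summit 221 bp upstream. It was 1 of 2 members with 2 IDR summits, the other being mRpS22. The weaker summit lay 16 bp upstream of mRpS26, at rank 7214, and 4 bp downstream of the TSS of mRpS22, at rank 6638.

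mRpL37, a large subunit protein with no bacterial counterpart, had a signal of 285, rank 2290, ranks 2316, 1711 and 3439 in the replicates and a summit 106 bp upstream. mRpS7, opposite the cell cycle kinase Cdk1 at 400 bp, had a signal of 257, rank 2655, ranks 2841, 3349 and 2386 in the replicates and a summit 190 bp upstream. At mRpL34 and mRpS7 the ribosomal gene was the closest gene, and at the strongest summit of mRpS26 it was CG13698.

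The promoters of 5 of the bound members described above are shown because each holds its summit, and 3 of them also hold an E-box whose place can be compared with it. They are 300 bases each from NCBI's Release 6 sequence (dm6), written 5′ to 3′ on the strand of the gene with the TSS at base 251, and capitals mark every CAGCTG, TATCGATA or TAATTA found.
mRpS10 (chr3R:15229415-15229714, plus strand, summit at base 113): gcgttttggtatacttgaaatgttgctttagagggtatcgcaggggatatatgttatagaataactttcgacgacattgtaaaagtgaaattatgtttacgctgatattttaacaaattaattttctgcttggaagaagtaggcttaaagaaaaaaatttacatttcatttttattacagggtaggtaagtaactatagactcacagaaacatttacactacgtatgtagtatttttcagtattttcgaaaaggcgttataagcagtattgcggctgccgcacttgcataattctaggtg
mRpL24 (chr2L:4945312-4945611, minus strand, summit at base 123): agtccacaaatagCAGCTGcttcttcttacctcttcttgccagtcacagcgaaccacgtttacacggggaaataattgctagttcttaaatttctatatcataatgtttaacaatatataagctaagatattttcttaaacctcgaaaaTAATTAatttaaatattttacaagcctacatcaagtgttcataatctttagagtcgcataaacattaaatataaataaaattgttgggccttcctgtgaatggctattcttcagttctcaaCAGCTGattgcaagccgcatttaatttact
mRpS2 (chr2L:4850370-4850669, minus strand, summit at base 68): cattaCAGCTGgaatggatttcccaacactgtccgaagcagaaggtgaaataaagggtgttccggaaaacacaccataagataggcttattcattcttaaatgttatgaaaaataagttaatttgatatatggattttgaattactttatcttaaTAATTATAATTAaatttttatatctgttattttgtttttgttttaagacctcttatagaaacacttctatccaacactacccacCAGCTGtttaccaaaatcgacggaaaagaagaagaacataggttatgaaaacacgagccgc
mRpS6 (chr3L:4364300-4364599, plus strand, summit at base 160): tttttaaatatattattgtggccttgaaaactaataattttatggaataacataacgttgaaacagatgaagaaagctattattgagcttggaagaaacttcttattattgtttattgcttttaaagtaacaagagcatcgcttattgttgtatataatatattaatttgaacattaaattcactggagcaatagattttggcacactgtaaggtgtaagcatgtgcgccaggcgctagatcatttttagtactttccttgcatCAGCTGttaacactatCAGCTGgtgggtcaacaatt
mRpS26 (chr3L:18106329-18106628, plus strand, summit at base 30): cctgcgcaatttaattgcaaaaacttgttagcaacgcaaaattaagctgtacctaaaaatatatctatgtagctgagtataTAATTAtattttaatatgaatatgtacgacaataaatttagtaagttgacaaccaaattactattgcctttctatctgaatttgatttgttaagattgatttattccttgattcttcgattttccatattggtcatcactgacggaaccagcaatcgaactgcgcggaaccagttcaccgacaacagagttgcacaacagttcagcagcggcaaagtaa
The promoters of mRpL24, mRpS2 and mRpS6 hold 2 copies of CAGCTG each. In mRpL24 and mRpS2 the copies stand on either side of the summit, and in mRpS6 both lie downstream of the TSS. mRpL24 and mRpS26 hold 1 TAATTA and mRpS2 holds a pair side by side. mRpS10, with the strongest peak of the 5, holds none of the letters marked.

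**Figure D4:**
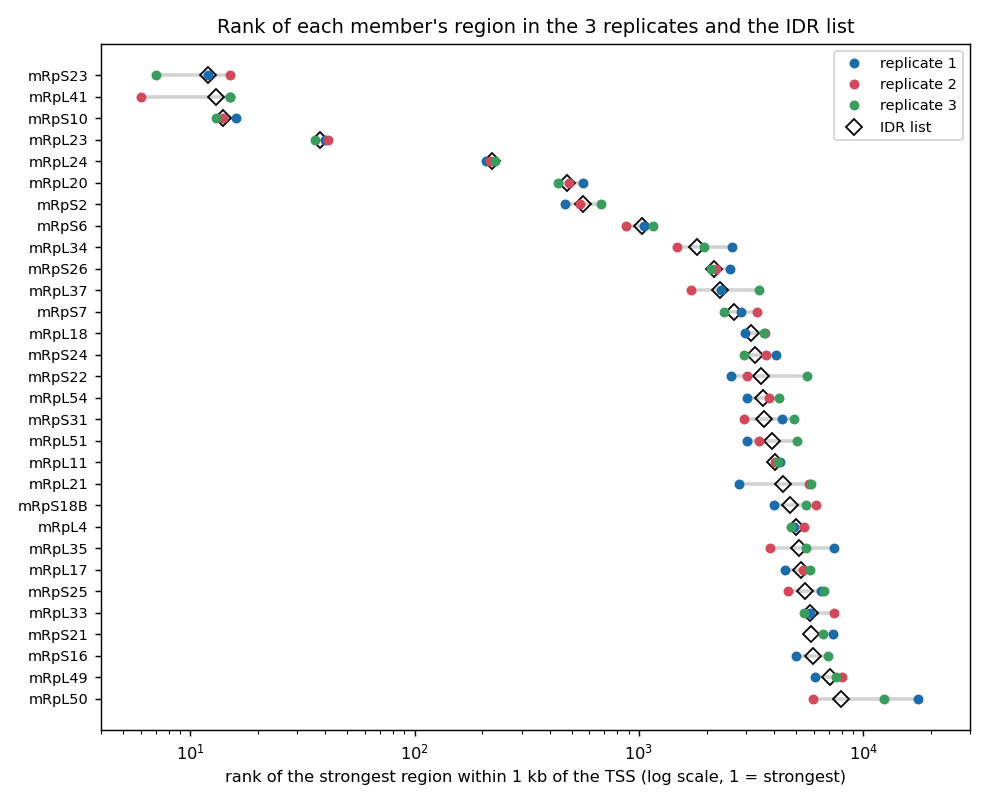
Rank of the strongest region within 1 kb of the TSS of each of the 30 bound members in the IDR list (open diamonds) and in replicates 1 to 3 (coloured points), on a log axis with 1 as the strongest. The first 4 genes rank from 6 to 41 in every replicate, and mRpL50, the lowest, ranks from 5991 to 17462.

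The remaining 18 bound members had IDR ranks from 3166 to 7945. In order of rank they were mRpL18 (3166), mRpS24 (3287), mRpS22 (3508), mRpL54 (3583), mRpS31 (3595), mRpL51 (3904), mRpL11 (4057), mRpL21 (4374), mRpS18B (4692), mRpL4 (5016), mRpL35 (5164), mRpL17 (5273), mRpS25 (5499), mRpL33 (5766), mRpS21 (5839), mRpS16 (5950), mRpL49 (7076) and mRpL50 (7945). The median signal of all 30 was 207 (range 98.2 to 2624, quartiles 151 and 439), beside a median of 245 over all bound genes. The median member peak was stronger than 57.0% of IDR peaks, beside 65.6% for the median bound gene. Of the 30, 9 were in the strongest 25% of the IDR list, where 39.3% of all bound genes lay, and 2 were in the weakest 25%, where 14.8% lay. One of the 100 strongest IDR peaks lay within 1 kb of 4 of the 73 members, beside 107 of the 13945 protein-coding genes. The median bound member was thus weaker than the median bound gene, while 4 members lay near the 100 strongest peaks and few bound members were in the weakest 25%.

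Among partners of these weaker peaks, mRpL35 faces Mitofilin, a protein of the mitochondrial inner membrane, at 192 bp, and mRpL18 faces Taz, which remodels the mitochondrial lipid cardiolipin, at 20 bp. mRpL11 faces HtrA2, a mitochondrial protease, at 126 bp. In all 3 cases the partner was closer to the summit. mRpS22 had ranks 2569, 3030 and 5595 in the replicates and mRpL21 had 2785, 5702 and 5845, so each was strongest in replicate 1 and weakest in replicate 3.

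Most bound members were found in every replicate. The IDR list was made from the same 3 replicates, so this is not separate evidence of repetition. Nor was every IDR peak repeated. The strongest peaks of all 3 replicates covered at least 50% of the peak at 5820 of the 8248. Of the 30, 27 had a summit among the strongest peaks of all 3 replicates. When the strongest peaks of all 3 had to cover the IDR peak, 27 members and 2623 of the 3399 bound genes remained bound. mRpS21 had ranks 7306 and 6628 in replicates 1 and 3 and no region within 1 kb in replicate 2. mRpS16 had ranks 5031 and 6987 in replicates 1 and 3 and likewise none in replicate 2. mRpL50 was the least even, with ranks 17462, 5991 and 12293, and only replicate 2 had it among its strongest peaks. The highest rank was 1.40 times the lowest in the median over the 28 bound members with a region in all 3 full lists, and at least 2 times in 6 of them. As a description, Spearman's rho of the ranks was 0.887 between replicates 1 and 2 (28 genes), 0.873 between 1 and 3 (30 genes) and 0.892 between 2 and 3 (28 genes). The points are genes and the replicates share 1 control file.

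Some unbound members had regions in the replicates. mRpS17, the counterpart of a bacterial small subunit protein, had ranks 4098, 5053 and 4052 at -298, -287 and -286 bp, yet the nearest summit of the pooled list was 10922 bp away. mRpL44 had ranks 7019, 7690 and 6538 at -198, -143 and -146 bp, with the nearest pooled summit 2900 bp away. Both were thus among the strongest peaks of all 3 replicates without any pooled or IDR region within 1 kb. Over all genes, 34 of 2842 with such peaks in all 3 replicates had no pooled region (1.20%).

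Strong peaks in a single replicate occurred at mRpS29, the counterpart of human DAP3, with rank 4844 in replicate 1, and at mRpL32 and mRpS11, with ranks 5759 and 6504 in replicate 1. mRpS30 had rank 7298 in replicate 2 alone. None of these 4 had a region within 1 kb in the other replicates. A pooled region below the IDR threshold lay near 8 unbound members, mRpL39, mRpS5, mRpL55, mRpS18A, mRpL47, mRpL2, mRpL19 and mRpL22. mRpL47 ranked 14621, 6527 and 7388 in the replicates and mRpL19 ranked 26968, 8887 and 6794, so replicate 1 was the weakest at both. mRpL2 ranked 6281, 10650 and 10606, with replicate 1 the strongest.

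In the full lists 36 members had a region in all 3 replicates, 4 in 2, 9 in 1 and 24 in none. The 24 are 32.9% of the members, beside 38.4% of all genes, and they had no region in the pooled list either. They were mRpL1, mRpL3, mRpL9, mRpL10, mRpL12, mRpL15, mRpL16, mRpL28, mRpL30, mRpL38, mRpL40, mRpL42, mRpL43, mRpL45, mRpL46, mRpL48, mRpL52, mRpS9, mRpS14, mRpS18C, mRpS28, mRpS33, mRpS34 and mRpS35. mRpL12, which in mammals also binds the mitochondrial RNA polymerase, had its nearest IDR summit 1948 bp upstream, at rank 751. mRpL27, mRpL13, mRpL36, mRpL14 and mRpL53 had a weak region in 1 replicate only, with ranks from 9925 to 17513.

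The bound members furthest from their summit were mRpS25 at 441 bp, mRpL33 at 575 bp and mRpL49 at 877 bp. The unbound members closest to one were mRpL27 at 1002 bp, mRpL32 at 1253 bp and mRpL13 at 1255 bp. Of the 30 bound members, 24 had the summit within 250 bp and 28 within 500 bp. A limit of 2 kb would add 8 members, giving 38 (52.1%), beside 30.7% of all genes. The median unbound member was 6829 bp from the nearest IDR summit, beside 9079 bp for all unbound genes, and the furthest was mRpS5 at 1475150 bp.

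In the large subunit 17 of 47 genes were bound (36.2%, exact interval 22.7 to 51.5%), and in the small subunit 13 of 26 (50%, 29.9 to 70.1%). The strongest peaks gave 40.4% of the large subunit in each of the 3 replicates and 61.5%, 50% and 53.8% of the small subunit in replicates 1, 2 and 3. The exact intervals of the subunits overlap, while in each replicate the share of the small subunit was the higher. Each of these values exceeded the 24.4% to 26.5% of all genes. Counted for the closest TSS only, 6 genes of the large subunit (12.8%) and 7 of the small subunit (26.9%) were bound, which lie on either side of the 18.5% of all genes.

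Members were also split by number alone, not by the origin of each protein. The numbers used in bacteria were taken as those up to 36 in the large and 21 in the small subunit. Members numbered as in bacteria were bound at 18 of 42 genes (42.9%) and those with higher numbers at 12 of 31 (38.7%). The replicates gave 52.4%, 40.5% and 47.6% of the former and 41.9%, 48.4% and 41.9% of the latter, ranges that overlap. By arm, 7 of 12 members were bound on 2L (58.3%, beside 23.4% of all genes there), 5 of 12 on 2R (41.7%, beside 22.3%) and 8 of 17 on 3L (47.1%, beside 25.4%). On 3R 7 of 21 were bound (33.3%, beside 25.3%) and on X 3 of 11 (27.3%, beside 25.8%), so X was nearest to its background. The median gene length was 849.5 bp for bound and 1044 bp for unbound members, and both were shorter than the median of all genes, 2166 bp.

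Other genes of mitochondrial gene expression were compared from a list of 48 matched genes. Of these, 14 were bound (29.2%, exact interval 17.0 to 44.1%), beside 24.4% of all genes, and the replicates gave 27.1%, 25% and 27.1%. The strongest peak lay at PNPase, the mitochondrial polynucleotide phosphorylase, with rank 9 and a signal of 2794. SLIRP2 and SLIRP1, relatives of a mammalian protein that stabilises mitochondrial messenger RNA, had ranks 62 and 917, and LeuRS-m, the mitochondrial leucyl-tRNA synthetase, had rank 381. By role, 5 of 10 RNA processing genes, 4 of 17 aminoacyl-tRNA synthetases, 2 of 8 translation factors, 1 of 5 transcription genes, 1 of 4 DNA replication genes and 1 of 2 assembly genes were bound. tko and bonsai, which encode small subunit proteins of the mitochondrial ribosome under other symbols, had no region within 1 kb in any list.

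The respiratory chain is the complex whose subunits the mitochondrial ribosome helps to make. Its list, taken by symbol pattern, had 21 of 91 genes bound (23.1%, exact interval 14.9 to 33.1%), with 28.6%, 24.2% and 26.4% in the replicates. The list includes related genes whose symbols have an added L. Of these COX7AL2 and Cyt-c1L were bound, while COX4L, ND-20L, SdhAL and others were not. The share without such genes was not computed. The cytoplasmic ribosomal protein genes had 63 of 92 bound (68.5%, 58.0 to 77.8%), with 72.8%, 59.8% and 65.2% in the replicates. In each replicate the members thus lay above this respiratory chain list and below the cytoplasmic ribosome. Of the cytoplasmic genes, 43 of 55 with a divergent promoter and 20 of 37 without one were bound. Counted for the closest TSS only, 58 of the 92 cytoplasmic genes (63.0%), 11 of the 48 other genes of mitochondrial gene expression (22.9%) and 14 of the 91 respiratory chain genes (15.4%) were bound, beside 13 of the 73 members (17.8%) and 18.5% of all genes. By this count the members no longer lay above the other genes of mitochondrial gene expression, and the distance to the respiratory chain was small. These differences between lists were described and not tested.

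Promoter sequence was read from 250 bp before to 50 bp after the 5′-most TSS. The E-box with the letters CAGCTG, a site of basic helix-loop-helix proteins that reads the same on both strands, occurred in 40 of 73 member promoters (54.8%), beside 17.7% of all promoters of the same length and 21.9% of all divergent promoters. It was found in 53.5% of unbound and 56.7% of bound members, and in 57.4% of the large and 50% of the small subunit. The other genes of mitochondrial gene expression had it in 41.7%, the respiratory chain in 23.1% and the cytoplasmic ribosomal protein genes in 9.78%. In this sequence feature the members were closer to the other mitochondrial gene expression genes than to the cytoplasmic ribosome.

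The E-box lay at the TSS rather than at the summit. Its 45 copies had a median position of 2 bp from the TSS (quartiles -34 and 16 bp), and 39 of them (86.7%) lay within 100 bp of it, beside 65.9% of the copies at all genes. At bound members the 21 copies were a median of 128 bp from the IDR summit, and 4 lay within 100 bp of it. Within 100 bp of the summit, 13.3% of bound members had a CAGCTG, beside 10.3% of the 2455 IDR summits within 500 bp of a TSS.

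**Figure D5:**
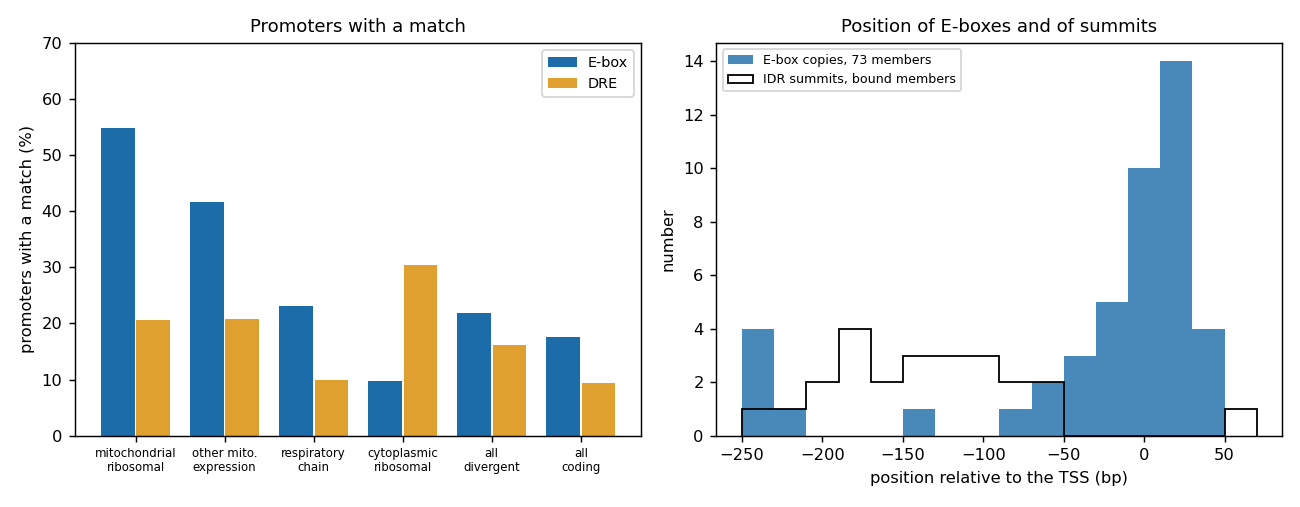
Left, share of 300 bp promoters with an E-box (blue) or a DRE (orange), in percent, in the gene lists named. Right, number of E-box copies in the 73 member promoters (blue) and of IDR summits of bound members up to 250 bp upstream (black outline) by position relative to the TSS in bp. The E-box is found in 54.8% of member promoters, and its copies gather at the TSS while the summits lie upstream.

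The DRE, the site of DREF with the letters TATCGATA, was found in 15 member promoters (20.5%), beside 9.36% of all promoters and 16.1% of all divergent promoters. Of divergent members 20.7% held it, and it was found in 20% of bound and 20.9% of unbound members. It occurred in 30.4% of cytoplasmic ribosomal promoters. Its 16 copies stood at a median of -9.5 bp, and 1 bound member of 30 (3.33%) had one within 100 bp of the summit, beside 5.05% of the IDR summits within 500 bp of a TSS. The homeodomain core TAATTA was in 20.5% of member promoters and 20.4% of all promoters, and within 100 bp of the summit in 26.7% of bound members and 19.6% of those IDR summits. CAGCTG, TATCGATA and TAATTA each read the same on both strands, and no pair of them shares more than a few end letters.

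The other motifs were searched on both strands in the same windows. The POU octamer ATGCAAAT was in 2.74% of member promoters and 3.47% of all promoters, and the class IV POU sequence ATTAATGAG in none and in 0.351%. GGTCACAC was in 11.0% and 7.70%, CANCNCTA in 21.9% and 15.6%, the E-box CACGTG in 6.85% and 4.20%, and TATAAA in 46.6% and 45.8%. CTTTTC was in 17.8% and 26.1%, GAGAGAG in 1.37% and 5.87%, GCGCATGC in 1.37% and 1.05%, and the Ets letters CCGGAAG in none and 1.09%. Over all divergent promoters, GGTCACAC was in 13.5%, CANCNCTA in 23.6%, CACGTG in 4.84% and TATAAA in 48.6%. Beside these shares, only CACGTG of the 4 was more frequent at the members. Base composition at the summits was rich in A and T, with a median GC content of 31.3% within 100 bp at bound members (24.9 to 51.7%), beside 33.8% at the IDR summits within 500 bp of a TSS. A match describes letters in a window and not a bound site.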

How the data were processed

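Per the labels, chromatin was sonicated to fragments of 200 to 800 bp and reads were aligned to dm6 and dm3. The aligner, the caller of peaks and the threshold of the IDR step were not given in the sources used here. For each region the authors deposited a signal value, a −log10 q-value, which reaches a ceiling and was not used to rank, and the offset of the summit from the region's start. Per the deposited text files, all replicate lists share 1 control file, which was not analysed here, and dm3 lists were not used.

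Summits were set against the TSSs of Ensembl release 115 in dm6 coordinates, and sequence came from NCBI's Release 6. A gene's strongest summit within 1 kb gave its rank, and a peak was repeated in a replicate when a region covered at least 50% of it. The members, the lists (48 of 75 names of mitochondrial gene expression matched; symbol patterns for the others) and 13 motifs were chosen with earlier results of these data known. The 12 members with the highest signal, and those with strong peaks in replicates only, are given in full, except that the promoter and partner of mRpL37 are not reported here. Alternatives covered the TSS distance, annotation, list, stronger peaks, replicates left out and closest TSS. A gene identifier is that of the annotation. Counting was tested on simulated summits. Python 3.11.15, numpy 2.4.6, pandas 2.3.3, scipy 1.17.1 and matplotlib 3.10.9 were used.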

Additional observations from a re-analysis of the deposited data

How the results depend on the processing

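The 30 bound members became 19 with only the stronger 50% of the IDR list (26.0%, beside 16.0% of all genes) and 13 when a summit counted only for the closest TSS. The same 2 settings gave 10 and 6 genes of the large subunit and 19 and 13 of the divergent members, closest TSS gave 7 of the small subunit, and the stronger 50% gave 7 other genes of mitochondrial gene expression. The members without a divergent promoter changed from 1 to 0 at 500 bp, with the stronger 50% and with the closest TSS. They changed to 3 at 2 kb and with all pooled regions. All pooled regions gave 36 respiratory chain genes (39.6%), beside 43.8% of all genes. Of all genes 20.4% were bound at 500 bp, 30.7% at 2 kb and 18.5% with the closest TSS. The replicate mean was 57.1% with all regions, beside 47.7% for all genes. At 500 bp it was 42.9%, and the same mean over all genes was not computed. The median position was -106 bp with the closest TSS and -176 bp in replicate 1, 92.3% of summits were upstream with the closest TSS, and the median percentile was 51.4 in replicate 1 and 48.9 in replicate 3. The DRE share was 3.33% around summits, and the CAGCTG share was 32.9% in the 500 bp before the TSS, a window that ends before many of the copies, and 13.3% around summits. With each replicate left out in turn, IDR peaks covered by the strongest peaks of both others gave 27 to 29 bound members. These are 37.0% to 39.7% of the members, beside 19.7% to 20.6% of all genes. The IDR list itself was made from all 3 replicates in each case. Leaving out each replicate gave a replicate mean of 44.5% to 46.6%. RefSeq's annotation gave the same 30 bound members and also 3399 bound genes in all, so it is not a separate check. Apart from the construction of each setting, the cause was not tested. Settings for the subunits, promoter classes and comparison lists, and the median position in single replicates, were added after the data were seen. No paired analysis was possible because there was 1 group. Depth is unknown.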
